A study of Mus musculus with 6 samples.

Results

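The glycosyltransferases and the sulfotransferase that build mucin sugar chains were followed in the colon of mice with and without epithelial Hnf4α. The 35 genes were taken from a list of enzymes grouped by the step they carry out, by a rule that uses no measured difference between the groups. Of these, 33 were represented by a probe set that carried no other gene symbol, out of 18193 genes measured in the series, while Gcnt4 and B4galnt3 had no such probe set and were not analysed here. RNA came from the proximal colon of 3 control mice, labelled wildtype, and 3 littermates labelled Hnf4a mutant, all 1 year old. The mutants carried Hnf4a flanked by loxP sites and a Cre transgene under the Villin promoter, which is active in intestinal epithelial cells, so that the gene stays intact in the other cells of the tissue. The study reports colonic inflammation and severe crypt distortion in all mutants it examined at this age. It describes fewer goblet cells in the more distorted crypts. This disease and the loss of Hnf4a cannot be told apart in the comparisons below.

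Mucins are proteins whose serine and threonine residues carry dense O-linked sugar chains, and these chains give intestinal mucus its volume, charge and resistance to bacterial enzymes. Synthesis begins in the Golgi when a polypeptide GalNAc-transferase attaches a first sugar. Core enzymes then add a branch point, further enzymes lengthen the branches, and sialic acid, fucose or sulfate closes the ends. In the colon most of this work takes place in goblet cells, but absorptive cells coat their own membrane mucins with the same enzymes, several of which also act on glycolipids and N-linked chains.

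Hnf4a itself fell in the mutants, with log2 signals from 11.97 to 12.23 in controls and from 10.09 to 10.17 in mutants (log2 fold change -1.94, standard error 0.10, adjusted p = 0.000788 by limma). The labels give female for all controls and mutant replicate 1, yet Xist, the RNA of the inactive X chromosome, was between 9.94 and 10.96 in controls and between 5.03 and 5.32 in the 3 mutants, and the Y-linked Eif2s3y was between 7.85 and 8.12 in the mutants. Mutant replicate 1 therefore did not match its labelled sex, and sex and genotype cannot be told apart in any comparison below. In mutant replicate 2 the median of 10 smooth muscle markers was -3.84 relative to the mean of the controls, and that of 10 fibroblast and matrix markers was -3.12. Markers of colon epithelium were present in every array. Over 13 genes their mean log2 signal lay between 12.34 and 12.40 in controls and between 12.45 and 12.63 in mutants. Of the 13, 10 had a positive log2 fold change, where 60.4% of all genes did, and none had an adjusted p under 0.05 by limma. In whole tissue, fewer cells of a type and less RNA per cell cannot be told apart.

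No mucin glycosylation gene passed the test between mutants and controls, on the probe set that represents it or on any other of its probe sets. None of the 33 was higher and none lower at an adjusted p under 0.05 by limma, where 0.484% of all genes were called higher, 0.396% lower and 0.879% in all. Before adjustment, 7 members had a p of 0.05 or less (21.2%, against 16.2% of all genes). Of these 4 were higher (12.1% of the 33, against 10.0% of all genes) and 3 lower (9.09%, against 6.18%). With a ratio of 2 or more asked for as well, 1 was higher, where 1.02% of all genes were, and 1 lower, where 1.31% were. The 3 mutants lay wholly above the 3 controls for 5 members (15.2%, against 14.5% of all genes) and wholly below them for 3 (9.09%, against 8.86%). Without mutant replicate 2, a comparison added after seeing the data, the counts were again 5 and 3, against 17.1% and 11.8% of all genes. These shares lie near those of all genes. The median log2 fold change of the members was -0.01, beside 0.05 over all genes. There were 15 positive and 18 negative values, so that 45.5% were positive, against 60.4% of all genes.

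**Figure D1:**
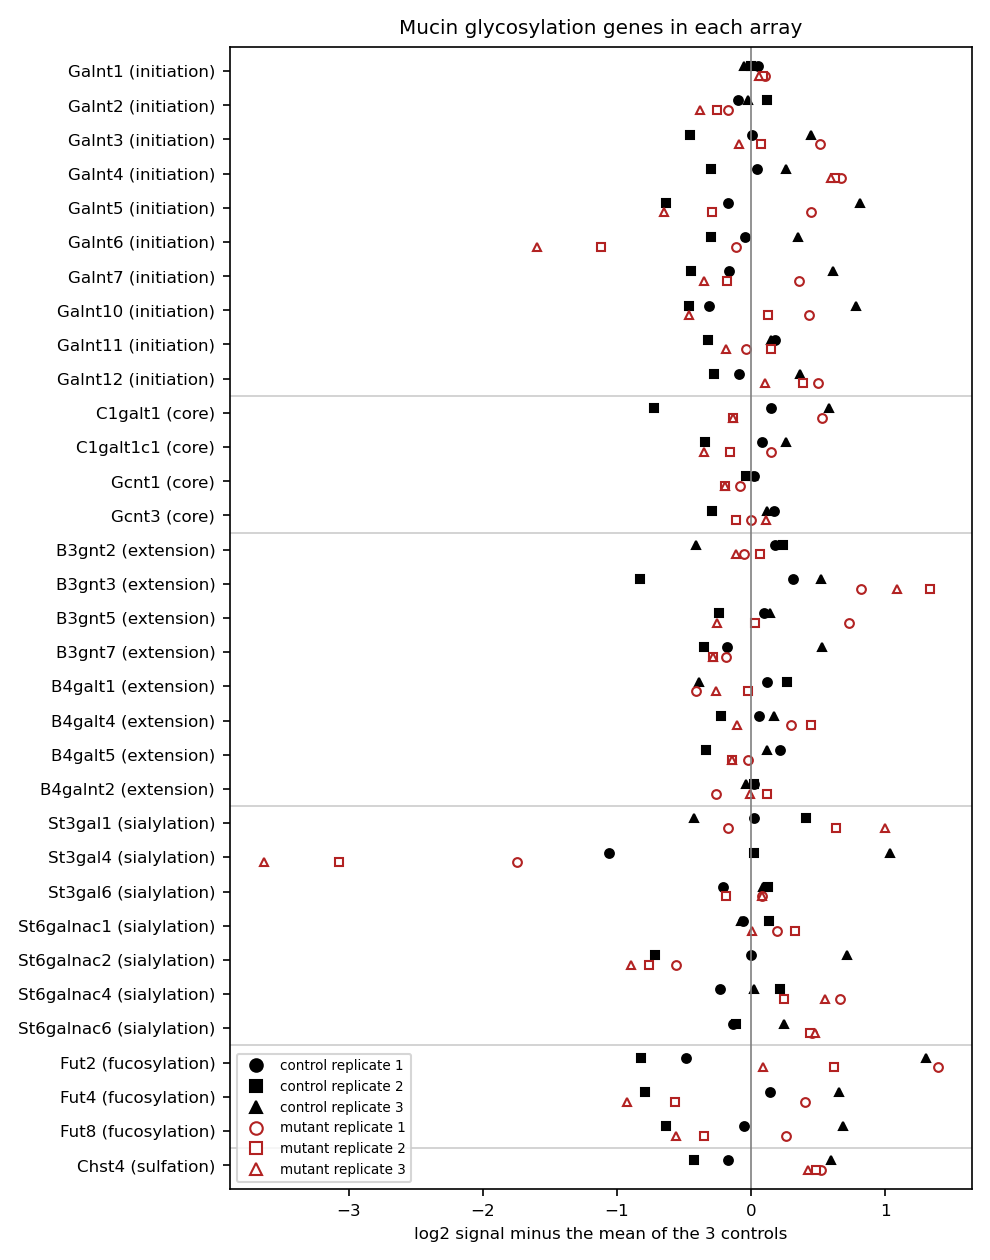
Log2 signal of each measured mucin glycosylation gene (vertical axis, by step), relative to its control mean (horizontal axis). Filled symbols are control mice, open ones mutants, and shapes give the replicate. St3gal4 stands apart on the left in the mutants, the mutants of B3gnt3 all lie to the right of its controls, and the controls of Fut2, Fut4 and Fut8 are spread widely.

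The 2 members that differed most were St3gal4 and B3gnt3, and their promoters are shown for that reason. The sequences are those of RefSeq on the mouse build GRCm38.p6, 250 bases up to the transcription start, read 5′ to 3′ on the minus strand of chr9:35116865-35117114 and chr8:71701801-71702050. Capitals mark a match to CAAAGTNCA, a short form of the Hnf4α recognition sequence, searched on both strands. Where no letter is in capitals the motif was not found.
St3gal4: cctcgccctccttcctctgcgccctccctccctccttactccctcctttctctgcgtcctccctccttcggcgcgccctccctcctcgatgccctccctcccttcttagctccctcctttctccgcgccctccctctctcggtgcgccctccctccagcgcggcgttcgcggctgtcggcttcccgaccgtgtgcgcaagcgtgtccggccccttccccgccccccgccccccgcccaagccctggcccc
B3gnt3: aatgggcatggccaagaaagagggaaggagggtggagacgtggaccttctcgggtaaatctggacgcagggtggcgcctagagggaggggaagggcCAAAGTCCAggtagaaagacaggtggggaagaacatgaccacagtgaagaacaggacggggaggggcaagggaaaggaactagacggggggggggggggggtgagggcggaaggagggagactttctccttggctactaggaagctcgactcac
The match of B3gnt3 ends 145 bases before the start. It was the only match among 34 promoters of 25 members in the table, and 1.19% of all 32851 promoters held the motif. The St3gal4 window is 72.8% G and C with 25 CpG sites and that of B3gnt3 60.0% with 8, beside medians of 52.4% and 6 over all promoters. A match is a description of letters, since binding was not measured on these arrays.

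Initiation of the chain was represented by all 10 of its listed GalNAc-transferases, with a median log2 fold change of 0.00 and a range from -0.94 to 0.63. Galnt4, which adds GalNAc next to sites already glycosylated, had log2 signals of 11.25, 10.90 and 11.46 in controls and of 11.88, 11.83 and 11.80 in mutants. All mutants lay above all controls, and the mutants lay closer together than the controls. The difference was 0.63 (standard error 0.15, 95% confidence interval 0.27 to 0.98, adjusted p = 0.166 by limma), a ratio of 1.55. A second probe set gave 0.84 and the dimmest one 0.14. Galnt6, an isoform of the GalNAc-transferase family, had 9.26, 9.01 and 9.65 in controls and 9.19, 8.19 and 7.71 in mutants. Mutant replicate 1 lay among the controls, while mutant replicates 2 and 3 lay below them. The log2 fold change was -0.94 (standard error 0.37, 95% confidence interval -1.82 to -0.06, adjusted p = 0.360). It was -1.36 without mutant replicate 1 and -0.61 without mutant replicate 3. A second probe set of Galnt6 gave -0.98, and the dimmest one -0.02.

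The other initiating enzymes differed little. Galnt2, a widely expressed transferase, had -0.27 (standard error 0.11, adjusted p = 0.359), and its mutants lay below its controls between 8.02 and 8.23 against 8.30 and 8.52. A second probe set of Galnt2 gave -0.01 with overlapping groups, and the dimmest one -0.17 with mutants below controls. The log2 fold changes of Galnt1, Galnt3, Galnt5, Galnt7, Galnt10, Galnt11 and Galnt12 lay between -0.16 and 0.33. Galnt5, Galnt7 and Galnt10 had control values that spanned more than those differences, for example 7.91 to 9.16 for Galnt10.

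Of the 4 core enzymes measured, 3 had groups that overlapped, and the groups of Gcnt1 lay apart by a small step. C1galt1, which makes the core 1 disaccharide, had 0.09 (standard error 0.35), and C1galt1c1, the chaperone that C1galt1 needs to fold, had -0.12 (standard error 0.19). Gcnt3, the mucin-type enzyme that makes core 2 and core 4 branches, had log2 signals of 11.74, 11.28 and 11.69 in controls and of 11.57, 11.45 and 11.68 in mutants. The groups overlapped throughout, and the difference was 0.00 with a 95% confidence interval from -0.35 to 0.35. Gcnt1, the other core 2 enzyme, had 4.91, 4.84 and 4.90 in controls and 4.80, 4.69 and 4.69 in mutants. Its mutants lay below its controls, by -0.16 (standard error 0.09, adjusted p = 0.483). A probe set of Gcnt1 with nearly the same mean signal gave -0.96 (standard error 0.59, adjusted p = 0.513), with 5.66, 4.19 and 5.995 in controls and 5.36, 3.84 and 3.76 in mutants. That probe set has control replicate 2 and mutant replicates 2 and 3 low, and its groups overlap.

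Chain extension held the highest positive value. B3gnt3, which extends core 1 with N-acetylglucosamine, had log2 signals of 9.06, 7.92 and 9.26 in controls and of 9.57, 10.08 and 9.84 in mutants. Every mutant lay above every control, and control replicate 2 lay more than a log2 unit below the other controls. The log2 fold change was 1.08 (standard error 0.35, 95% confidence interval 0.26 to 1.91, adjusted p = 0.281), a ratio of 2.12, and it was 0.67 without control replicate 2. B4galnt2, which adds the terminal GalNAc of the Sda antigen in mouse colon, had 12.94, 12.95 and 12.88 in controls and 12.66, 13.04 and 12.91 in mutants. The arrays of both groups were close together, and the difference was -0.05 with a 95% confidence interval from -0.33 to 0.23. The remaining 6 enzymes of extension, among them B3gnt2 and B3gnt7, which build polylactosamine, and B4galt1, B4galt4 and B4galt5, which add galactose, lay between -0.25 and 0.21.

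Sialylation held the largest difference of all members. St3gal4, which places sialic acid in α2,3 linkage on galactose at chain ends, had log2 signals of 7.81, 8.88 and 9.90 in controls and of 7.12, 5.79 and 5.23 in mutants. All mutants lay below all controls, although the controls spanned more than 2 log2 units and mutant replicate 1 lay next to control replicate 1. The log2 fold change was -2.82 (standard error 0.63, 95% confidence interval -4.32 to -1.31, adjusted p = 0.146 by limma), a ratio of 0.142. Leaving out 1 array at a time gave values between -3.35 and -2.30, none of which passed the test.

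St3gal6, an α2,3-sialyltransferase that acts on similar chain ends, gave different answers by probe set. Its most intense probe set, of a type whose probes may also match other transcripts, had 7.75, 8.08 and 8.05 in controls and 8.04, 7.77 and 8.04 in mutants, a difference of -0.01 (standard error 0.13). The next probe set had 7.17, 6.93 and 9.03 in controls and 6.88, 5.20 and 5.13 in mutants (log2 fold change -1.97, standard error 0.67, adjusted p = 0.304). Without control replicate 3 it gave -1.31. The following one gave -1.40 (standard error 0.56, adjusted p = 0.368). Mutant replicates 2 and 3 were low on both of these, with mutant replicate 1 near control replicates 1 and 2, an arrangement also seen for Galnt6. The other 2 probe sets of St3gal6 lay at or below the signal that Y-linked genes had in controls, from 2.75 to 4.01, which served as the level of no specific signal. The use of these probe sets was decided after their values were seen. Which of them follows St3gal6 RNA was not tested.

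**Figure D2:**
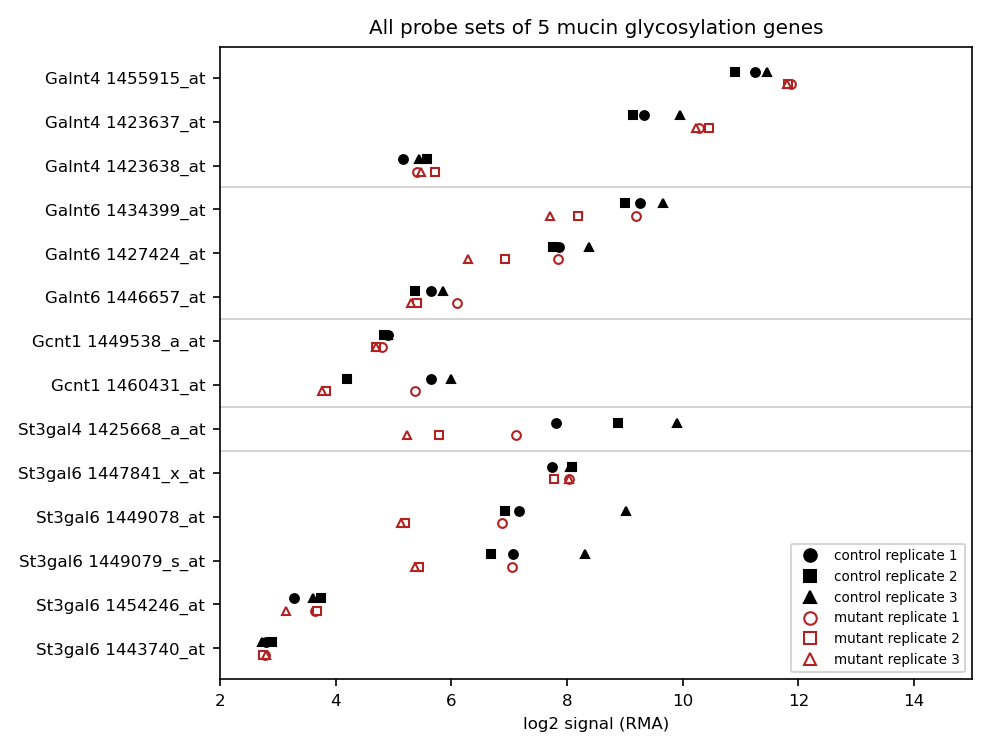
Log2 signal (horizontal axis) for every probe set of 5 genes (vertical axis, the most intense of a gene first). Filled symbols are control mice, open ones mutants, and shapes give the replicate. The second and the third probe set of St3gal6 put mutant replicates 2 and 3 between 5.13 and 5.44, while the first lies between 7.75 and 8.08 in all arrays.

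The enzymes that attach sialic acid to GalNAc went both ways. St6galnac6, which also sialylates glycolipids, had 10.58, 10.61 and 10.96 in controls and 11.17, 11.15 and 11.20 in mutants. Each mutant lay above each control, and the difference was 0.46 (standard error 0.12, 95% confidence interval 0.16 to 0.75, adjusted p = 0.216). St6galnac4 gave 0.49 (standard error 0.16, adjusted p = 0.287), again without overlap, and 0.48 on its second probe set. St6galnac2, which sialylates core 1 on mucins, had -0.74 (standard error 0.33, adjusted p = 0.412), with controls from 7.25 to 8.68 and mutants from 7.07 to 7.40. St6galnac1, which makes the sialyl-Tn antigen, had 0.18 (standard error 0.12), and St3gal1, the core 1 sialyltransferase, 0.49 (standard error 0.33). The 6 sialyltransferases other than St3gal4 lay between -0.74 and 0.49 on the probe sets that represent them.

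None of the 3 fucosyltransferases differed beyond the spread of the controls, whose standard deviations were between 0.66 and 1.14. Fut2, the enzyme of the H antigen in gut epithelium, had log2 signals of 8.53, 8.20 and 10.32 in controls and of 10.41, 9.64 and 9.11 in mutants. Control replicate 3 lay nearly 2 log2 units above the other controls and within the range of the mutants. The difference was 0.70 (standard error 0.58, adjusted p = 0.627). It was 1.35 without control replicate 3, but 0.46 when control replicate 1 was left out, 0.29 when control replicate 2 was, 0.35 when mutant replicate 1 was and 0.22 with array weights, and it passed the test in none of these. Fut4, of Lewis-type antigens, had -0.36 (standard error 0.45), and Fut8, which fucosylates the core of N-linked chains and not mucin O-chains, had -0.22 (standard error 0.36). For sulfation, Chst4, a GlcNAc 6-O-sulfotransferase, had 8.14, 7.89 and 8.91 in controls and 8.84, 8.80 and 8.74 in mutants. The mutants lay within the upper part of the control range, with a difference of 0.48 (standard error 0.25, adjusted p = 0.460). This was 0.26 without control replicate 2, 0.29 with array weights and 0.78 without control replicate 3.

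**Figure D3:**
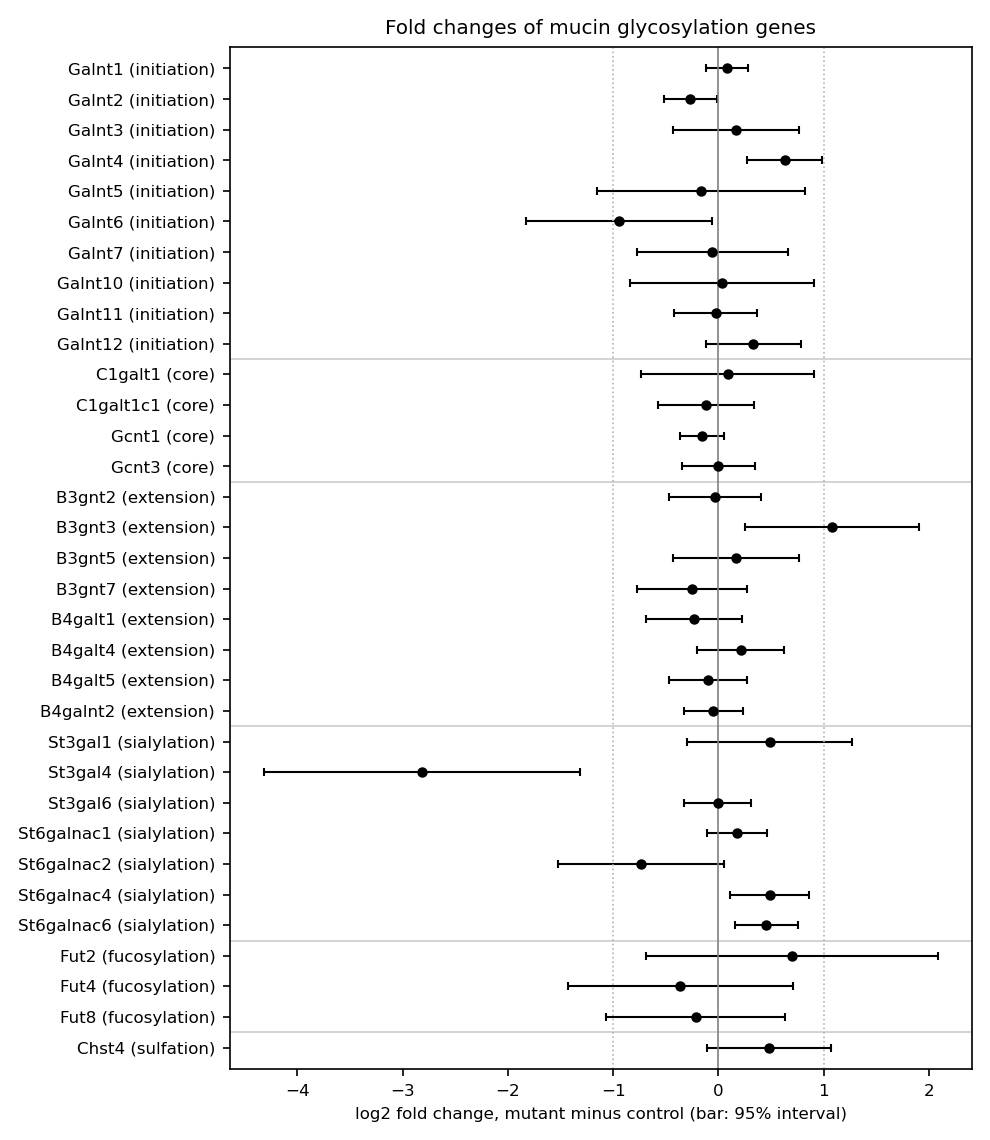
Log2 fold change, mutant minus control (horizontal axis), of each measured gene by step, with the 95% confidence interval of limma before adjustment (bars) and dotted lines at -1 and 1. St3gal4 is at -2.82 and B3gnt3 at 1.08, and the intervals of 23 of the 33 genes lie within the dotted lines.

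The precision differed among members. On the probe sets that represent them, 23 of the 33 had a 95% confidence interval within -1 to 1, so that a ratio of 2 in either direction was outside it. For the others, among them Fut2, Fut4 and St3gal4, the interval reached further. The count holds for the chosen probe sets only, and the intervals of other probe sets were not counted. The 23 include St3gal6 and Gcnt1, whose second probe sets gave -1.97 and -0.96. They also include Galnt4 and Galnt10, whose second probe sets gave 0.84 (standard error 0.21) and -0.12 (standard error 0.46). The median standard deviation among controls was 0.33 for the members and 0.15 for all genes, and among mutants 0.20 and 0.14. Of the 24 members with more than 1 probe set, 10 had their 2 most intense probe sets on opposite sides of 0, and for 4 (Gcnt1, St3gal1, St3gal6 and St6galnac2) these probe sets differed by more than 0.5. No member had a value below 4.69 in any array on the probe set that represents it.

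The members shared an order of arrays within each group. Control replicate 3 was the highest control for 20 of the 33 (60.6%, against 25.2% of all genes), and control replicate 2 the lowest for 22 (66.7%, against 27.7%). Mutant replicate 1 was the highest mutant for 23 (69.7%, against 32.2%), and mutant replicate 3 the lowest for 23 (69.7%, against 35.3%). The 82 measured genes of the wider pathway leaned the same way. Control replicate 3 was their highest control for 41.5% and control replicate 2 the lowest for 39%. Their highest mutant was replicate 1 for 51.2%, and their lowest was replicate 3 for 52.4%. Relative to the control mean, the members' median in replicates 1 to 3 was 0.01, -0.30 and 0.26 for the controls, and for the mutants it was 0.19, 0.03 and -0.13. For 14 goblet cell markers the median, which includes no member, had the same order, with -0.05, -0.31 and 0.38 in controls and 0.15, -0.15 and -0.39 in mutants. Single markers did not all follow it. Control replicate 2 was the lowest control for 8 of the 14 (57.1%) but the highest for 6 (42.9%, against 49.4% of all genes). Mutant replicate 1 was the highest mutant for 9 (64.3%), and mutant replicate 3 the lowest for 9 (64.3%). The mean log2 signal of the 14 markers ran from 11.57 to 11.98 in controls and from 11.39 to 11.93 in mutants, and none of the 14 passed the test. Muc2, the main secreted mucin of the colon, had 14.16, 13.96 and 14.42 in controls and 14.42, 13.92 and 13.72 in mutants. The part of goblet cell content in the members' values was not tested.

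**Figure D4:**
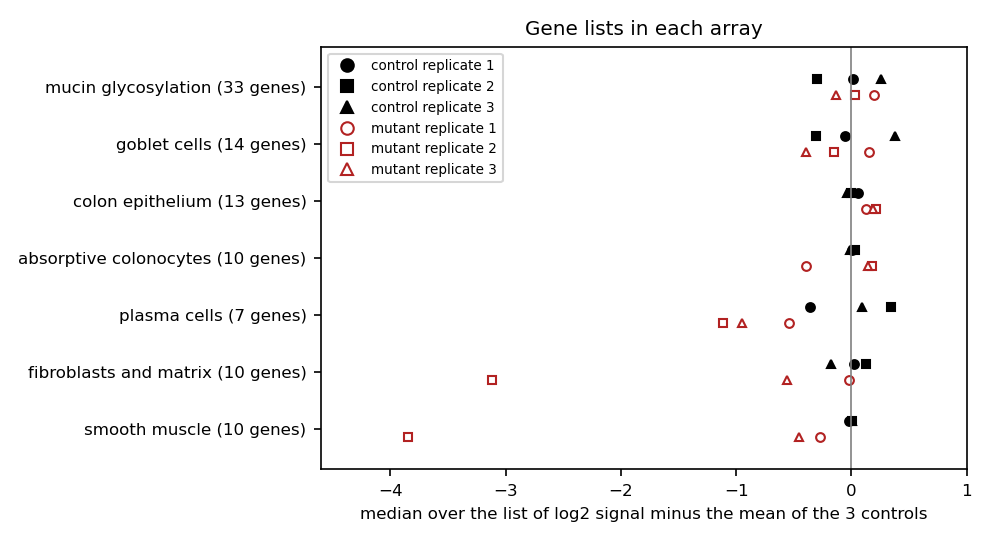
Median log2 signal of each gene list relative to the control mean (horizontal axis), by array. Filled symbols are control mice, open ones mutants, and shapes give the replicate. The mucin glycosylation genes and the goblet cell markers put the arrays in the same order within each group, while the smooth muscle list (-3.84) and the fibroblast and matrix list (-3.12) are low in mutant replicate 2.

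Around these enzymes, 1 of 82 measured genes of the wider pathway passed the test, where 0.879% of all genes did. Abo, the blood group transferase that adds the last sugar to the H antigen made by Fut2 or Fut1, had log2 signals of 4.19, 4.62 and 4.72 in controls and of 6.43, 7.36 and 6.93 in mutants. The groups were far apart on the array, and Abo rose by 2.39 on the log2 scale, a ratio of 5.25 (standard error 0.25, adjusted p = 0.0174 by limma). It did not pass without control replicate 1 (2.23, adjusted p = 0.0970), control replicate 3 (2.50, adjusted p = 0.0549) or mutant replicate 3 (2.38, adjusted p = 0.104). None of the 82 was lower and passed on the probe set that represents it, and among their other probe sets 1, of Gcnt2, was lower and passed. With p-values left unadjusted, 17 were higher at 0.05 or less (20.7%, against 10.0% of all genes) and 7 lower (8.54%, against 6.18%), and the median log2 fold change was 0.07.

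Of the other transferases, Gcnt2, which branches polylactosamine into I antigen, was lower in every mutant. Its log2 signals were 7.53, 7.44 and 7.49 in controls and 6.80, 5.43 and 6.31 in mutants (log2 fold change -1.31, standard error 0.32, adjusted p = 0.170). A dimmer probe set of Gcnt2 fell by 0.73 on the log2 scale (standard error 0.10, adjusted p = 0.0385 by limma), from between 5.26 and 5.50 in controls to between 4.63 and 4.68 in mutants. Averaged over all 8 probe sets of Gcnt2, of which 7 were negative, the difference was -0.49 (adjusted p = 0.0653). Gal3st2, a galactose sulfotransferase of mucin chains, had 9.07, 8.31 and 7.84 in controls and 5.33, 6.85 and 6.88 in mutants (-2.06, standard error 0.48, adjusted p = 0.160). St3gal3, an α2,3-sialyltransferase, had 0.53 (standard error 0.18, adjusted p = 0.299), and Galntl6, of the GalNAc-transferase family, had 0.79 (standard error 0.16, adjusted p = 0.107) with controls between 4.43 and 4.84. B3gnt6, the core 3 enzyme of the colon, had -0.42 (standard error 0.41, adjusted p = 0.680). It was named after its value was seen.

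Enzymes that supply activated sugars and sulfate had more positive than negative values. Of 18 genes of nucleotide sugar synthesis 13 were positive (median 0.08), and of 8 genes of nucleotide sugar transport 7 were positive (median 0.31), beside 60.4% positive over all genes. None passed the test. Papss1, which makes the sulfate donor, had 10.94, 10.72 and 10.89 in controls and 11.58, 11.56 and 11.18 in mutants (log2 fold change 0.59, standard error 0.14, adjusted p = 0.158). Slc35d2, a Golgi nucleotide sugar transporter, had 0.45 (standard error 0.13, adjusted p = 0.249), and Fuca1, a lysosomal fucosidase, 0.42 (standard error 0.11, adjusted p = 0.191). For both the mutants lay above the controls. Among 8 mucins 5 values were positive and 3 negative. The membrane mucin Muc13 had 12.55, 12.56 and 12.99 in controls and 12.24, 11.99 and 11.73 in mutants (-0.72, standard error 0.18, adjusted p = 0.176), with no overlap. Muc3 had -0.30 (standard error 0.12, adjusted p = 0.350), also with its mutants below its controls. Muc4 went the other way, by 1.19 (standard error 0.37, adjusted p = 0.272), and its mutants lay above its controls. A second probe set of Muc4 gave 1.31 and the dimmest one 0.07. Muc3 and Muc4 were named after their values were seen.

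**Figure D5:**
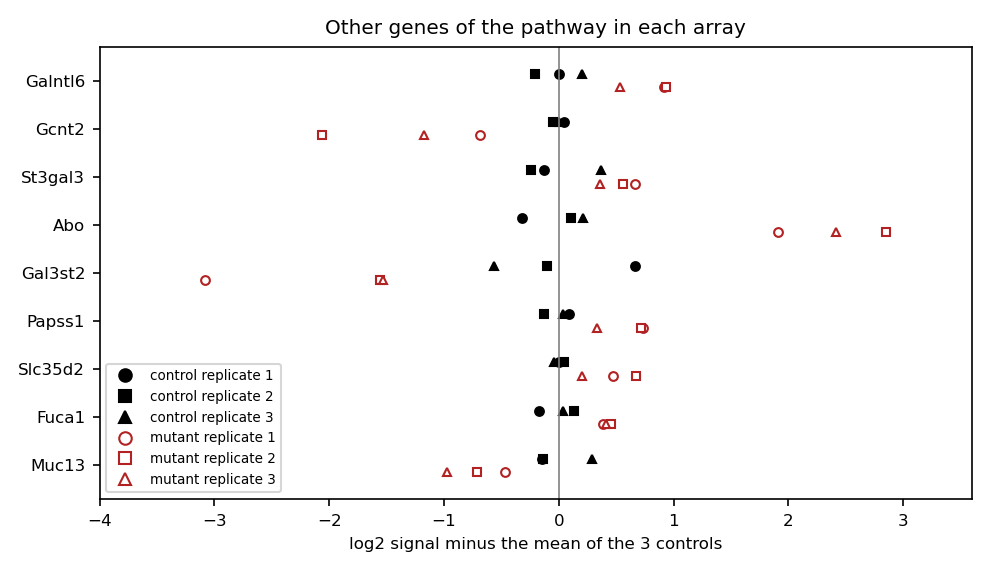
Selected genes of the wider glycosylation pathway in each array (horizontal axis, log2 signal relative to the control mean). Filled symbols are control mice, open ones mutants, and shapes give the replicate. Abo lies at a mean of 2.39 in the mutants, and Gal3st2 and Gcnt2 at -2.06 and -1.31.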

How the data were processed

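Total RNA from the colon of each mouse was labelled with biotin and hybridised to an Affymetrix array of the mouse genome. The authors normalised the 6 arrays by RMA and deposited log2 signals, with settings and version not given in the sources used here. These log2 values were used as deposited. RMA values of different probe sets are not comparable as levels. After 64 control probe sets were left out, 45037 were fitted with limma (version 3.58.1, R 4.3.3; checked on simulated data) for the difference of mutant from control. Benjamini-Hochberg adjustment ran over all of them. The study itself had used SAM. Platform annotation gave 34945 probe sets 1 gene symbol and 932 several, and 9160 were unnamed. Each of 18193 genes was represented by its probe set of highest mean signal. The members, the pathway and marker lists and the tests were chosen with earlier results of these data known. Members given array by array had an adjusted p under 0.05, or an unadjusted p of 0.05 or less with a ratio of 2 or more, or the largest change or highest signal of their step. Other pathway genes were given where their adjusted p was under 0.05 or their p the smallest of their class. Alternatives covered normalisation, variance model, array weights, a filter on dim probe sets, probe set choice, threshold, replicate block and each array left out. The 3 arrays per group limit the precision. No exact permutation test of 3 arrays against 3 gives a two-sided p below 0.1.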

Additional observations from a re-analysis of the deposited data

How the results depend on the processing

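No mucin glycosylation gene was called in either direction under any of 13 alternatives that kept the adjusted threshold. At an unadjusted p of 0.05 or less with a ratio of 2 or more, 1 was higher (B3gnt3) and 1 lower (St3gal4), and of the wider pathway 2 were higher and 2 lower. The median of the members lay between -0.10 and 0.13. The wider pathway had between 0 and 1 higher gene when 1 array was left out, and Abo, the gene concerned, had values from 2.17 to 2.63. Gcnt3 turned positive with arrays centred on their medians (0.0319) and with all its probe sets averaged (0.0644), and ranged from -0.15 to 0.0858 with 1 array left out, where B4galnt2 ranged from -0.13 to 0.0544. Averaging all probe sets moved Gcnt1 from -0.16 to -0.56 and Gcnt2 from -1.31 to -0.49. Over all 45037 probe sets, 239 were called. Leaving out control replicate 1 gave 39, control replicate 3 gave 92, mutant replicate 2 gave 147 and mutant replicate 3 gave 52, and the highest count was 336 (control replicate 2 left out). There were 599 with array weights, where St3gal4 had an adjusted p of 0.0899. Same-numbered arrays did not all deviate together (correlations -0.02, 0.25 and -0.15), while control replicate 3 and mutant replicate 1 had 0.38. With 3 arrays per group these correlations cannot exclude a pairing of mice. The replicate numbers are not said to pair them, so the mice were not treated as pairs. With the replicate block 62 probe sets were called, among the members 0 higher and 0 lower, and Abo stayed called (adjusted p = 0.0208).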
